A study of Mus musculus with 12 samples.

Results

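Adrenergic signaling genes were compared in the hearts of mice with and without cardiomyocyte CYB5R3, the flavoprotein reductase cytochrome b5 reductase 3. The 9 genes were taken by name, under a rule that uses no measured value, as receptors (Adrb1, Adrb3, Adra1a and Adra1b), the stimulatory G protein and its cyclases (Gnas, Adcy5 and Adcy6) and receptor kinases (Grk2 and Grk5), out of 53700 genes in the counts. Of these, 8 genes passed the filter on low counts, while Adrb3 did not. RNA came from frozen whole-heart tissue of male mice, 6 in each genotype. The ac-WT mice had genotype CYB5R3wt/wt, Myh6-CreERT2, and ac-CYB5R3–KO denotes CYB5R3fl/fl, Myh6-CreERT2, so that both groups carried a Cre recombinase driven by the promoter of the cardiomyocyte myosin gene Myh6. Both groups were also given the Cre-activating ligand tamoxifen (33 mg/kg each day over 5 days) when 10 to 13 weeks old, with hearts collected 5 days later. The transgene is driven in cardiomyocytes, so other cells of the sampled tissue would keep an intact floxed allele.

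In the heart, noradrenaline from sympathetic nerves and circulating adrenaline bind β-adrenergic receptors on cardiomyocytes. These receptors activate the stimulatory G protein, which switches on adenylyl cyclase, and the cAMP it makes activates protein kinase A, so that calcium entry, contraction and heart rate increase. The α1 receptors couple through Gq to phospholipase C, and receptor kinases phosphorylate active receptors and uncouple them.

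Between 43393183 and 53754284 reads were counted per library. Expression is given as CPM, a gene's reads relative to library size after TMM normalization, a scaling that guards against a few highly expressed genes setting the levels of all others. TMM factors were 0.57 and 0.723 in ac-WT mice 2 and 3 and 0.988 to 1.22 in the other 10 libraries. Reads are divided by library size times this factor, so low factors raise every CPM of these 2 libraries, marker sums included. How much of the marker sums came from this scaling was not tested. In the same 2 libraries, the summed CPM of 8 cardiomyocyte markers was 49300 and 39700, against 21200 to 25100 in the other 4 ac-WT hearts and 16300 to 26500 in ac-CYB5R3–KO hearts. Their summed CPM of 6 fibroblast markers was 593 and 645, against 1890 to 3060 in the other 4 ac-WT hearts and 1890 to 2840 in ac-CYB5R3–KO hearts. Results are therefore also given without these 2 hearts where they move or end a call. Cyb5r3, the targeted gene, was 126 ± 38.4 CPM in ac-WT and 53.7 ± 9.07 CPM in ac-CYB5R3–KO hearts (SD, n = 6), and its groups did not overlap (log2 fold change -1.22, SE 0.19, edgeR quasi-likelihood test with Benjamini-Hochberg adjustment, adjusted p = 0.045). Its log2 fold change stayed between -1.49 and -1.03 over the alternatives, but its adjusted p was 0.1 with the replicate block, 0.315 with total counts and over 0.05 in 7 of 12 fits that left out 1 mouse. Among 6 atrial markers, Sln and Bmp10 never exceeded 3 counts and Myl7 was at 0.196 to 2.0 CPM. The others were present, with Myl4 at 4.97 to 9.75 CPM, Kcnj3 at 4.35 to 21.1 CPM and Nppa, which ventricles can also express, at 405 to 1620 CPM (named after their values were seen). The summed CPM of adipocyte markers was at most 4.44, in ac-WT mouse 2, and none of the 7 passed the filter on low counts. Of 4 atrial markers tested 2 were lower in ac-CYB5R3–KO hearts, at an unadjusted p under 0.05. Of all genes tested, 9.73% were lower and 4.91% higher at this limit. Of red blood cell and of cartilage markers, 3 of 5 and 3 of 3 tested were higher at the same limit, as was 1 of 6 smooth muscle and pericyte markers. In that direction none of the endothelial, fibroblast, nerve or leukocyte markers passed this limit, and 2 smooth muscle and pericyte markers and 2 nerve and Schwann cell markers were lower. In bulk tissue, fewer cells of a type and less RNA per cell cannot be told apart.

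Start-site sequences, from 250 bases before to 50 bases after the start, were listed for 5 of the 9 genes in RefSeq (GRCm38.p6). The windows of Adrb1, the main cardiac β receptor, and of Adra1b and Grk5, the genes with the smallest edgeR p-values among the 9, are shown 5′ to 3′ on the gene's strand. Adrb1 lies at chr19:56721867-56722166 (plus strand), Adra1b has windows at chr11:43901188-43901487 and chr11:43836440-43836739 (minus strand), and Grk5 lies at chr19:60889499-60889798 (plus strand). Capitals mark the GC box GGGCGG and the core TGACG of the cAMP response element, on either strand.
Adrb1: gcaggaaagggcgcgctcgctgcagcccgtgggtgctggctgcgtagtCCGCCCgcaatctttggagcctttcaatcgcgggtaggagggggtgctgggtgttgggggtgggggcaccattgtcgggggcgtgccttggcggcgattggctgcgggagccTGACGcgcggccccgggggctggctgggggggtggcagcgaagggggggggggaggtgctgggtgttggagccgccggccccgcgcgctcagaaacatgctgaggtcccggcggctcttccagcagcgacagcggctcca
Adra1b, upstream start: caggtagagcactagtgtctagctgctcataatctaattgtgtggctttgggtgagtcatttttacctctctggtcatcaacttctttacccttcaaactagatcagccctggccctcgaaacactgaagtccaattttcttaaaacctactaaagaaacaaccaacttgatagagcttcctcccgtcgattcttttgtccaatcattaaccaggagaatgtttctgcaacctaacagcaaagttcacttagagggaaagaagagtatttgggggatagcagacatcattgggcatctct
Adra1b, downstream start: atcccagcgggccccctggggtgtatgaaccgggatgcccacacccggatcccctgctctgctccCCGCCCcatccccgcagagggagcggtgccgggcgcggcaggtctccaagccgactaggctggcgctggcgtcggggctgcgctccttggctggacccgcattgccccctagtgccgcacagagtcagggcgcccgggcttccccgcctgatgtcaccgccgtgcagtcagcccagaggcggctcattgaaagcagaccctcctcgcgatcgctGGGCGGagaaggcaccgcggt
Grk5: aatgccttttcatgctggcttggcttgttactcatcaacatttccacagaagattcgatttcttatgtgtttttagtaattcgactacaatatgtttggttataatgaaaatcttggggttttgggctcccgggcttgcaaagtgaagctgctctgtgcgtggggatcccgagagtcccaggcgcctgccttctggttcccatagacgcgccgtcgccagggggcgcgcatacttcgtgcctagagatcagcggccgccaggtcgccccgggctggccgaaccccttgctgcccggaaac
The Adrb1 window held 1 core and 1 GC box in 72.3% GC, where 20.8% of all 32851 windows held the core and 35.7% the GC box. The downstream Adra1b window held 2 GC boxes in 71.3% GC. The upstream Adra1b window (42.3% GC) and the Grk5 window (54.3% GC) held neither of them. The full palindrome TGACGTCA, which contains the core, was in 1.79% of all windows and in none of the 4 shown. The TATA box TATAAA and the Nr4a site AAAGGTCA, in 13.6% and 1.51% of all windows, were also in none of the 4. A match is a description of the letters and not of a bound site.

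Levels of the 9 genes spanned a wide range. Divided by exon length, ac-WT hearts held on average 14.0 CPM per kb of Adcy6, 10.6 of Grk5, 10.4 of Grk2, 5.4 of Adcy5, 2.96 of Adrb1, 1.87 of Adra1b, 0.422 of Gnas, 0.106 of Adra1a and 0.011 of Adrb3. In ac-CYB5R3–KO hearts the order was led by Grk5 at 14.0 CPM per kb, followed by Grk2 at 9.31, Adcy6 at 6.5, Adcy5 at 4.56 and Adrb1 at 3.13, with Adra1b at 0.979, Gnas at 0.409, Adra1a at 0.128 and Adrb3 at 0.0275. Without ac-WT mice 2 and 3, the ac-WT mean of Adcy6 was 44.7 CPM in place of 84.5, before division by exon length. Those of Grk5 and Grk2 were then 38.4 and 44.8 CPM. With exons of 6.02 kb, against 3.17 and 4.48 kb, Adcy6 then no longer led the ac-WT order. In ac-WT hearts Adcy6, Grk5 and Grk2 overlapped in CPM per kb, and so did Adrb1 and Adra1b, although Adrb1 was the higher of the pair in 6 of 6 hearts. The ranges of all other neighbours in the ac-WT order were apart. Grk5 and Grk2, which overlapped in ac-WT hearts, did not overlap in ac-CYB5R3–KO hearts, where Grk5 was higher in 6 of 6.

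No member gene passed an adjusted p under 0.05 between genotypes with edgeR, and none did with DESeq2. At an unadjusted p under 0.05, 3 of the 8 tested genes differed, with lower Adra1b and Adcy6 and higher Grk5 levels after CYB5R3 deletion. Over all 17847 genes tested, 14.6% passed this limit, 9.73% lower and 4.91% higher. These directions depend on the scaling. When scaled by total counts instead, 367 genes passed as lower and 1686 as higher, and of the 8 adrenergic genes 0 passed as lower and 2, Adrb1 and Grk5, as higher. Adjusted p was under 0.05 for 0.101% of all genes. The groups overlapped in all 9 genes, where 1.55% of all genes had groups that did not overlap. The 8 genes had a median log2 fold change of -0.098, against -0.0074 over all genes. When ac-WT mice 2 and 3 were dropped, 0 of the 8 genes passed an unadjusted p under 0.05, where 7.98% of all genes did.

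**Figure D1:**
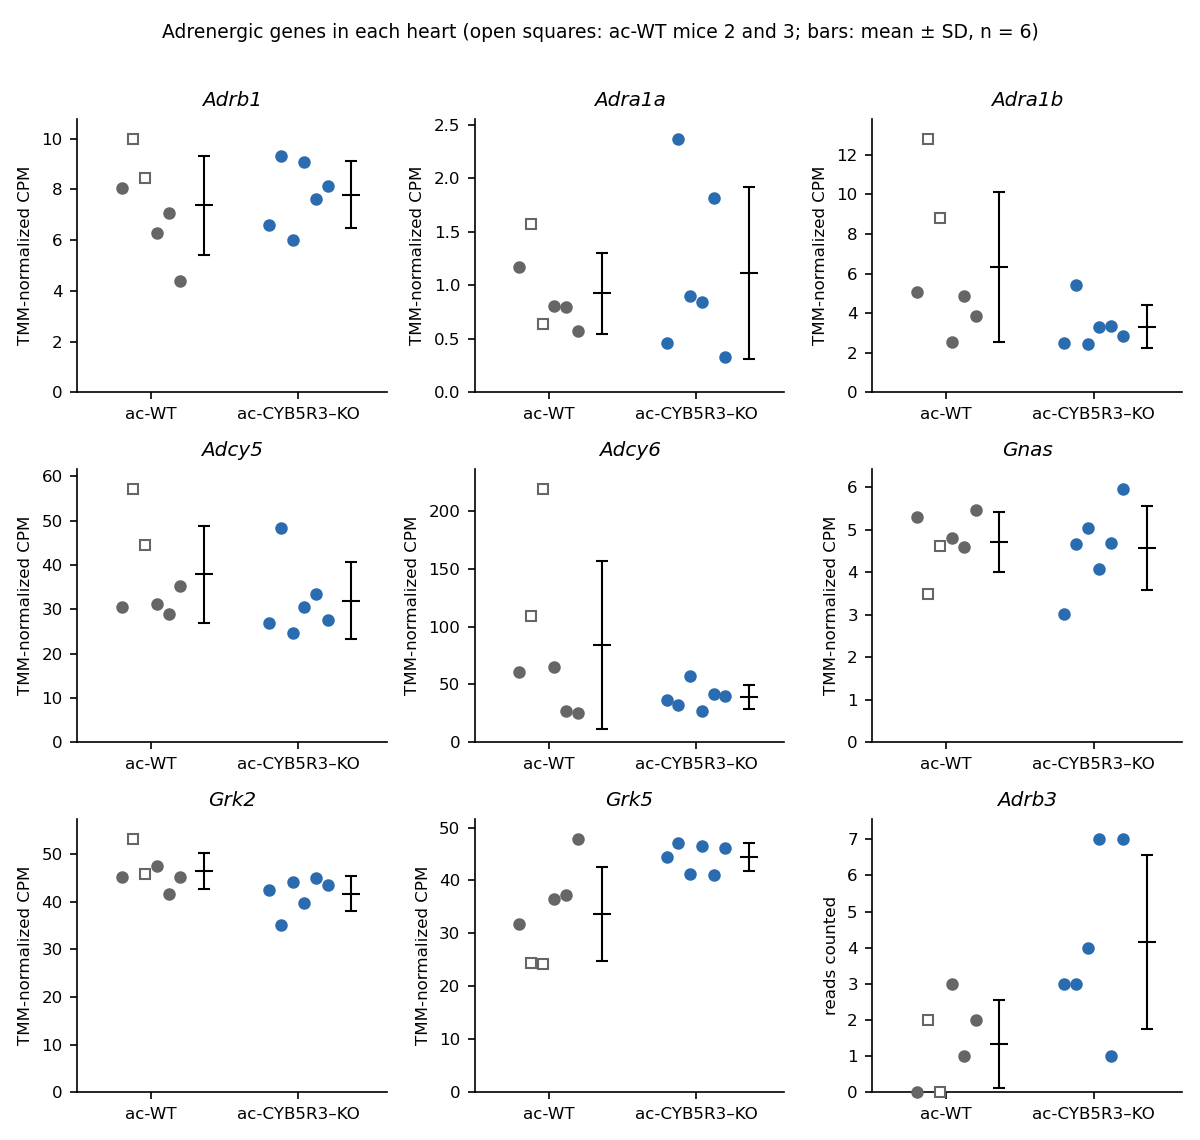
Expression of the 9 adrenergic genes in each heart, in TMM-normalized CPM (reads counted for Adrb3). Each point is 1 mouse, bars are mean ± SD of 6 mice, and open squares are ac-WT mice 2 and 3, which hold the 2 highest values of Adra1b and Adcy6, the 2 highest ac-WT values of Adcy5 and the 2 lowest values of Grk5.

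Among the receptors, Adrb1, the main driver of rate and force, did not pass the test between genotypes. It had a lowest, median and highest level of 4.38, 7.55 and 9.99 CPM in ac-WT hearts and of 6.01, 7.87 and 9.30 CPM in ac-CYB5R3–KO hearts. The ac-CYB5R3–KO hearts all lay within the range of ac-WT hearts. Its log2 fold change was 0.083 (SE 0.18, 95% confidence interval -0.3 to 0.47, adjusted p = 0.85), which does not show the levels to be equal. Dropping ac-WT mice 2 and 3, which had the highest ac-WT levels, gave 0.29 (adjusted p = 0.745 by edgeR). Adrb1 passed the unadjusted limit in 3 other fits, at 0.40 with total counts, 0.37 with 1 surrogate variable and 0.36 with the mean cardiomyocyte marker level as a covariate (edgeR, adjusted p = 0.41, 0.63 and 0.88).

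Adrb3, a β receptor known for fat and for nitric oxide signaling in heart, was close to the limit of detection. Its reads numbered 0, 2, 0, 3, 1 and 2 in ac-WT mice 1 to 6 and 3, 3, 4, 7, 1 and 7 in ac-CYB5R3–KO mice 1 to 6. A count of 0 allows up to 3 reads in a library, and 0 ac-WT and 3 ac-CYB5R3–KO hearts exceeded 3 reads. In a fit with no filter on low counts, the difference had an unadjusted p of 0.0622 (edgeR, adjusted p = 0.501). The groups overlapped, and no fold is given for counts this low.

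Adra1a and Adra1b are the α1 receptors of cardiomyocytes. Adra1a had 16 to 138 reads per library, with a lowest, median and highest level of 0.569, 0.804 and 1.57 CPM in ac-WT hearts and of 0.326, 0.870 and 2.37 CPM in ac-CYB5R3–KO hearts. Of the ac-CYB5R3–KO hearts, 2 lay above every ac-WT heart and another 2 below, and the log2 fold change was 0.29 (SE 0.44, adjusted p = 0.776 by edgeR), or 0.44 without ac-WT mice 2 and 3.

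Adra1b had the smallest edgeR p-value of the 8 tested genes. It stood at 5.05, 12.8, 8.82, 2.55, 4.87 and 3.83 CPM in ac-WT mice 1 to 6. In ac-CYB5R3–KO mice 1 to 6 it stood at 2.51, 5.40, 2.45, 3.29, 3.36 and 2.85 CPM. Of the ac-CYB5R3–KO hearts, 5 of 6 lay below the ac-WT median and 2 lay below every ac-WT heart. The log2 fold change was -0.92 (SE 0.34, 95% confidence interval -1.66 to -0.18, p = 0.0182 by edgeR, adjusted p = 0.251), and the exact permutation test of log2(CPM + 1), two-sided over all ways to place 12 hearts into groups of 6, gave p = 0.0649. The 2 highest levels were those of ac-WT mice 2 and 3, the hearts with the lowest TMM factors and the highest summed CPM of cardiomyocyte markers. Without them the log2 fold change was -0.28 (adjusted p = 0.847 by edgeR), and without mouse 2 alone, which also ended the unadjusted call, it was -0.58. Total counts gave -0.49, 1 surrogate variable -0.22 and the mean cardiomyocyte marker level as a covariate -0.16, with no call in each.

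Gnas, which encodes the α subunit of the stimulatory G protein, was at 4.72 ± 0.699 CPM in ac-WT and 4.58 ± 0.986 CPM in ac-CYB5R3–KO hearts (SD, n = 6). Genotypes differed by a log2 fold change of -0.046 (SE 0.16, 95% confidence interval -0.39 to 0.3, adjusted p = 0.91 by edgeR), and by -0.13 without ac-WT mice 2 and 3. In the NCBIM37 annotation, 2457 of its 11186 exon bases overlap the antisense genes Nespas and AF085738, and the strand setting of the counts is not given in the sources used here. Its level, well under those of the cyclases per kb, is therefore uncertain.

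Adcy5 and Adcy6 encode the main adenylyl cyclases of cardiomyocytes. Adcy5 was at 37.9 ± 11.0 CPM in ac-WT and 32.0 ± 8.64 CPM in ac-CYB5R3–KO hearts (SD, n = 6). Its log2 fold change of -0.24 (SE 0.2, adjusted p = 0.576 by edgeR) became -0.40 without ac-CYB5R3–KO mouse 2, past the unadjusted limit, and 0.039 without ac-WT mice 2 and 3, which at 57.1 and 44.4 CPM lay above the 28.9 to 35.3 CPM of the other ac-WT hearts.

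Adcy6 had the widest spread of the 9 genes among ac-WT hearts, at 60.9, 109, 219, 65.3, 27.1 and 25.4 CPM in mice 1 to 6. The ac-CYB5R3–KO hearts were at 36.4, 32.3, 57.1, 27.1, 42.1 and 39.7 CPM. All 6 ac-CYB5R3–KO hearts lay below the ac-WT median of 63.1 CPM, while none lay below the lowest ac-WT heart. The log2 fold change was -1.11 (SE 0.45, 95% confidence interval -2.07 to -0.15, p = 0.0264 by edgeR, adjusted p = 0.273), and the exact permutation test gave p = 0.18. Dropping ac-WT mice 2 and 3 left -0.18 (adjusted p = 0.941 by edgeR), and without mouse 3 alone it was -0.55. The unadjusted call was also lost without ac-WT mouse 2 or ac-CYB5R3–KO mouse 4 (each -1.01) and with total counts (-0.63). The replicate block (-0.76) and the marker covariate (-0.14) ended it too, and with 1 surrogate variable the value turned to 0.13. The within-library log2 ratio of Adcy5 to Adcy6 reads, which does not depend on normalization, was -0.79 ± 0.98 in ac-WT and -0.29 ± 0.617 in ac-CYB5R3–KO hearts (SD, n = 6, exact permutation test, p = 0.323, adjusted p = 0.403 over 5 ratios).

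**Figure D2:**
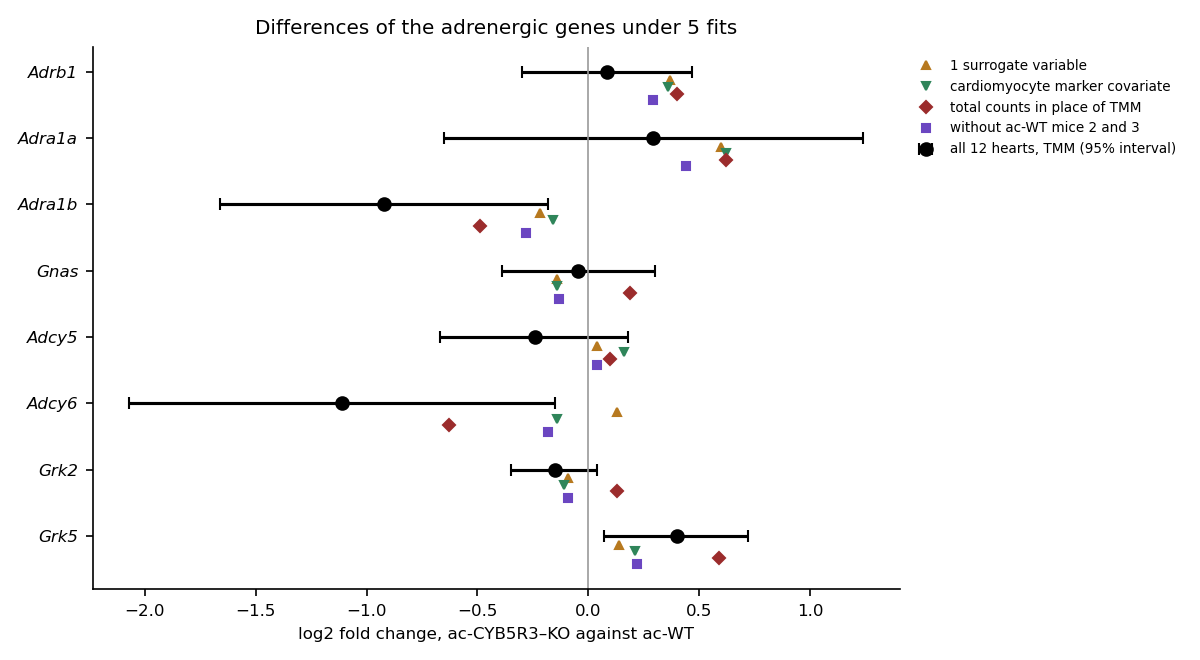
Log2 fold change of the 8 tested adrenergic genes, with ac-CYB5R3–KO against ac-WT on the x axis. Black points with 95% confidence intervals are from all 12 hearts, and coloured points are from 4 other fits. Adra1b, Adcy6 and Grk5 have intervals that leave out 0, and without ac-WT mice 2 and 3 their values move to -0.28, -0.18 and 0.22.

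Grk2 and Grk5 are the main G protein-coupled receptor kinases of the heart. Grk2, which older annotations list as Adrbk1, had a lowest, median and highest level of 41.7, 45.4 and 53.1 CPM in ac-WT hearts. In ac-CYB5R3–KO hearts these were 35.2, 42.9 and 44.9 CPM, and 6 of 6 hearts lay below the ac-WT median. On the log2 scale the genotypes differed by -0.15 (SE 0.089, adjusted p = 0.441 by edgeR), and by -0.092 without ac-WT mice 2 and 3. The exact permutation test gave p = 0.0455, and 0.171 without those 2 hearts. It passed 0.05 no longer in 8 of the 12 runs that left out 1 mouse, where p reached 0.104. Scaled by total counts, the direction turned to 0.13.

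Grk5 was at 31.8, 24.5, 24.2, 36.5, 37.3 and 47.8 CPM in ac-WT mice 1 to 6 and at 44.4, 47.1, 41.3, 46.5, 41.0 and 46.1 CPM in ac-CYB5R3–KO mice 1 to 6. All 6 ac-CYB5R3–KO hearts lay above the ac-WT median of 34.2 CPM, and 1 ac-WT heart lay above them all. The ac-CYB5R3–KO hearts varied less, with an SD of 2.65 CPM against 8.94 CPM. The log2 fold change was 0.40 (SE 0.15, 95% confidence interval 0.073 to 0.72, p = 0.0201 by edgeR, adjusted p = 0.258), and the exact permutation test gave p = 0.0195. The 2 lowest levels were again those of ac-WT mice 2 and 3, and without them the log2 fold change was 0.22 (adjusted p = 0.637 by edgeR), which ended the unadjusted call. The call was also lost with 1 surrogate variable (0.14) and with the marker covariate (0.21).

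Within libraries, the log2 ratio of Grk5 to Grk2 reads was -0.50, -1.12, -0.92, -0.38, -0.16 and 0.085 in ac-WT mice 1 to 6. It was 0.066, 0.42, -0.096, 0.22, -0.13 and 0.089 in ac-CYB5R3–KO mice 1 to 6. Grk5 reads thus outnumbered Grk2 reads in 1 ac-WT heart and in 4 ac-CYB5R3–KO hearts. The means differed by 0.59 on the log2 scale (exact permutation test, two-sided, p = 0.0108, adjusted p = 0.0541 over the 5 ratios), which misses the 0.05 limit after adjustment. The difference was 0.33 without ac-WT mice 2 and 3, with the unadjusted permutation p still under 0.05. Leaving out each mouse, that unadjusted p ran from 0.00216 to 0.0303. The ratio of Adra1a to Adra1b differed by 0.81 (exact permutation test, p = 0.104, adjusted p = 0.26). The ratios of Grk2 to Adrb1 and of Adra1a to Adrb1 differed by -0.26 and -0.077 (exact permutation tests, p = 0.253 and 0.885).

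**Figure D3:**
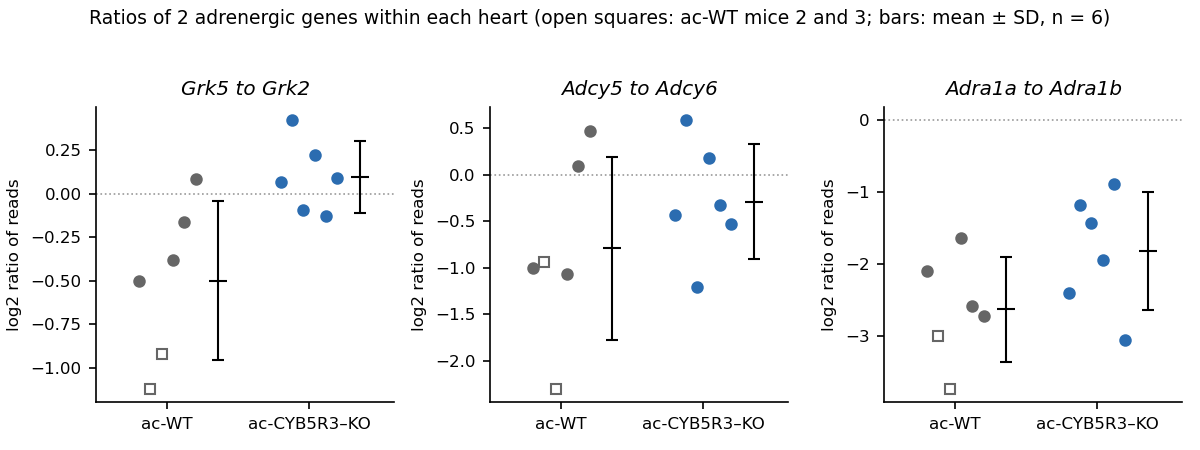
Log2 ratio of the reads of 2 adrenergic genes within each heart. Each point is 1 mouse, bars are mean ± SD of 6 mice, open squares are ac-WT mice 2 and 3, and the dotted line marks equal reads. The Grk5 to Grk2 ratio of ac-WT hearts reaches from -1.12 to 0.085 and that of ac-CYB5R3–KO hearts from -0.13 to 0.42.

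Some members varied together between hearts of a genotype. After subtracting each group mean, log2(CPM + 1) of Adra1b and Adcy5 had a Pearson r of 0.857 over 12 hearts and 0.677 over the 10 hearts without ac-WT mice 2 and 3. Adrb1 and Adra1b had r = 0.772 and 0.602, and Adcy6 and Grk5 had r = -0.895 and -0.743. Adra1a and Adcy5 had r = 0.646 and 0.725. For some pairs the 2 values differed widely, as for Adra1b and Grk2 (0.0499 and -0.798) and Adra1b and Grk5 (-0.682 and 0.00917). The points are CPM of the same libraries and share their depth and composition, so the values are descriptions. Of 13290 genes compared, the levels of Adrb1 were most like those of Gm166 (r = 0.942), Gpr157 (0.934), an orphan receptor, and Kcnj2 (0.929), the inward rectifier potassium channel. Those of Adra1b were most like those of Stard7 (0.977), a phosphatidylcholine carrier of mitochondria, Acat1 (0.974), the mitochondrial acetoacetyl-CoA thiolase, and Pigp (0.972), all over 12 hearts.

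The wider pathway was counted in lists by role. Of 102 genes, 97 were tested, and 21 (21.6%) had an unadjusted p under 0.05, 14 of them lower and 7 higher after CYB5R3 deletion, where 14.6% of all genes passed. With total counts 7 passed as lower and 10 as higher, so the balance of directions turned with the scaling. With edgeR 0 of the pathway genes passed an adjusted p under 0.05, where 18 of all 17847 genes did. With DESeq2 5 did, namely Dbh, Nr4a1, Nr4a3, Tnni3 and Gnao1, where 437 of all 17847 genes did. The median log2 fold change was -0.11, against -0.0074 over all genes. When ac-WT mice 2 and 3 were left out, 12 genes passed the unadjusted limit, 6 lower and 6 higher, where 7.98% of all genes did.

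**Figure D4:**
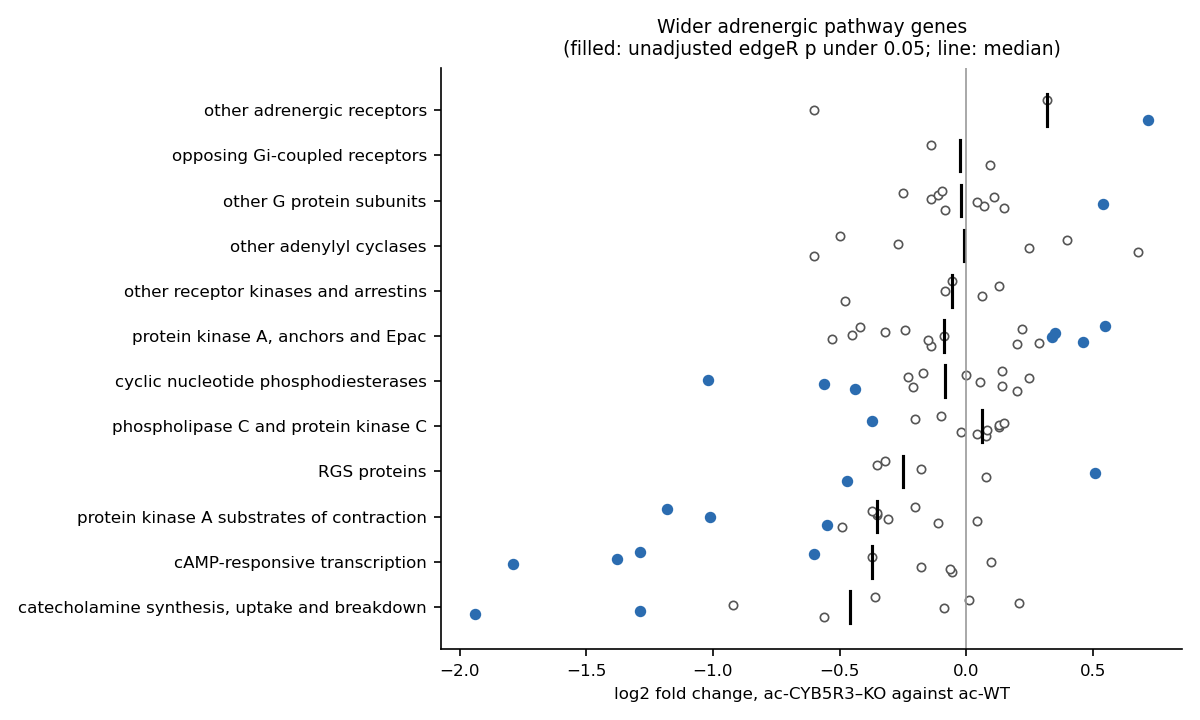
Log2 fold change of the 97 tested genes of the wider pathway, with ac-CYB5R3–KO against ac-WT on the x axis and lists by role on the y axis. Filled points have an unadjusted edgeR p under 0.05 and lines are list medians. Filled points among substrates of contraction, cAMP-responsive transcription and catecholamine enzymes are all below 0, and those among protein kinase A genes are all above 0.

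Of the genes that act upstream of the receptors, 2 of 8 tested genes of catecholamine synthesis, uptake and breakdown were lower at the unadjusted limit. Both were enzymes of synthesis, and 9.73% of all genes were lower at this limit. Dbh, which makes noradrenaline from dopamine, was at 2.00, 6.01, 3.08, 1.06, 1.45 and 0.759 CPM in ac-WT mice 1 to 6 and between 0.265 and 0.846 CPM in ac-CYB5R3–KO hearts. Of the ac-CYB5R3–KO hearts, 5 of 6 lay below every ac-WT heart, and the log2 fold change was -1.94 (SE 0.47, adjusted p = 0.173 by edgeR and 0.00453 by DESeq2). It was -1.09 without ac-WT mice 2 and 3. Pnmt, which makes adrenaline, had a log2 fold change of -1.29 (adjusted p = 0.224 by edgeR) on 8 to 45 reads per library, and of -0.71 with no call without those 2 hearts. Th, the rate-limiting enzyme, and Slc6a2, the noradrenaline transporter, had at most 13 reads in any library and were not tested. Of nerve and Schwann cell markers, 2 of 5 tested were lower, although the summed CPM of the list ran higher, with ranges of 35.5 to 136 in ac-WT and 99.5 to 168 in ac-CYB5R3–KO hearts. Their part in the Dbh levels was not tested.

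Among other receptors, Adra1d, another α1 receptor, was at 0.390 ± 0.107 CPM in ac-WT and 0.644 ± 0.221 CPM in ac-CYB5R3–KO hearts (SD, n = 6, log2 fold change 0.72, adjusted p = 0.272 by edgeR). Dropping ac-WT mice 2 and 3 left 0.73 but ended the unadjusted call, as did leaving out ac-WT mouse 4 (0.57) or ac-CYB5R3–KO mouse 2 (0.58) or 6 (0.65), and 147 of its exon bases overlap an antisense gene. Neither of the opposing receptors Chrm2 and Adora1 passed the limit. Of 10 other G protein subunits, Gnao1, the α subunit of Go, passed it. Gnao1 was at 14.3 to 24.7 CPM (median 16.4) in ac-WT and 21.3 to 29.2 CPM (median 26.6) in ac-CYB5R3–KO hearts, 5 of which lay above every ac-WT heart. The log2 fold change was 0.54 (SE 0.14, adjusted p = 0.176 by edgeR and 0.0386 by DESeq2), and 0.43 without ac-WT mice 2 and 3. None of 6 tested cyclases and none of 5 receptor kinases and arrestins beyond the members passed the limit.

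Downstream of cAMP, 4 of 15 genes of protein kinase A, its anchors and Epac passed the limit, all higher, with a list median of -0.087. Over all genes, 4.91% passed as higher. With total counts 5 of the 15 passed as higher, where 1686 of 17847 genes did. Rapgef4, the cAMP-activated exchange factor Epac2, differed by 0.55 on the log2 scale (SE 0.2, adjusted p = 0.244 by edgeR), Pkia, an inhibitor of protein kinase A, by 0.34 (SE 0.13), and Prkar1b, a regulatory subunit, by 0.46 (SE 0.19). The Pkia call was lost without ac-CYB5R3–KO mouse 2 (0.27) or 4 (0.30). The Prkar1b call was lost without ac-WT mice 2 and 3 (0.30) and in 6 of 12 fits that left out 1 mouse. Of 12 tested phosphodiesterases, which break down cyclic nucleotides, 3 were lower at this limit, where 9.73% of all genes were. With total counts 0 were lower at it, where 367 of 17847 genes were. The values of Pde4d, Pde4a and Pde1c were -1.02, -0.56 and -0.44 over all hearts and -0.21, -0.13 and -0.18, with no call, without ac-WT mice 2 and 3, whose levels of each were the highest of the 12 hearts.

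Of 11 protein kinase A substrates of contraction, 10 were lower by sign, where 51.2% of all genes were, and 3 at an unadjusted p under 0.05, where 9.73% of all genes were. With total counts 6 were lower by sign, where 18.1% of all genes were, and 2 at that limit. Tnni3, cardiac troponin I, was at 1480 to 4810 CPM (median 1810) in ac-WT and 888 to 1450 CPM (median 1250) in ac-CYB5R3–KO hearts, and its groups did not overlap. Its log2 fold change was -1.01 (SE 0.28, adjusted p = 0.184 by edgeR and 0.0276 by DESeq2), and -0.46 without ac-WT mice 2 and 3. Ppp1r1a, an inhibitor of protein phosphatase 1, and Cacnb2, a subunit of the L-type calcium channel, had log2 fold changes of -1.18 and -0.55, which were -0.51 and -0.19, with no call, without those 2 hearts, and Cacnb2 also lost its call without ac-WT mouse 3 alone (-0.33). Of the 8 cardiomyocyte markers, 3 were lower at the same limit, with a median log2 fold change of -0.44. Their part in these differences was not tested beyond a fit with the mean marker level as a covariate, in which Tnni3 was at -0.33 (adjusted p = 0.88 by edgeR).

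Of 9 genes of cAMP-responsive transcription, 8 were lower by sign (51.2% of all genes) and 4 at an unadjusted p under 0.05 (9.73% of all genes). With total counts 5 were lower by sign (18.1% of all genes) and 3 at that limit, and without ac-WT mice 2 and 3 the counts were 7 and 2. The orphan nuclear receptor Nr4a1, an early target of cAMP signaling, was at 127, 182, 106, 30.5, 36.7 and 38.0 CPM in ac-WT mice 1 to 6. It was at 39.6, 26.1, 29.3, 15.7, 22.6 and 17.2 CPM in ac-CYB5R3–KO mice 1 to 6, where 5 of 6 hearts lay below every ac-WT heart. The log2 fold change was -1.79 (SE 0.43, adjusted p = 0.173 by edgeR and 0.00453 by DESeq2), and -1.20 without ac-WT mice 2 and 3. Its relative Nr4a3 was at 2.75 to 9.96 CPM (median 3.39) in ac-WT and 1.48 to 2.33 CPM (median 1.97) in ac-CYB5R3–KO hearts. The Nr4a3 groups did not overlap, and differed by -1.38 on the log2 scale (SE 0.34, adjusted p = 0.173 by edgeR and 0.00897 by DESeq2) and of -1.21 without those 2 hearts. Fos, an immediate early gene, differed by -1.29 on the log2 scale (SE 0.48, adjusted p = 0.249 by edgeR) with ac-WT levels from 17.5 to 127 CPM, and ac-CYB5R3–KO levels from 11.6 to 51.7 CPM overlapped them. Without those 2 hearts Fos was at -0.93, and without ac-WT mouse 2 alone at -0.99, with no call in either.

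On the α1 side, 1 of 10 phospholipase C and protein kinase C genes passed the limit, Prkce, the protein kinase C ε gene, with a log2 fold change of -0.37 (SE 0.16). Its call was lost without ac-WT mice 2 and 3 (-0.19), with total counts (-0.042) and in 7 of 12 fits that left out 1 mouse. Of 6 RGS proteins, which speed the shut-off of G proteins, 2 passed the limit in opposite directions, where 14.6% of all genes passed. Rgs2, which acts on Gq, had a median of 19.1 CPM in ac-WT and 15.4 CPM in ac-CYB5R3–KO hearts, 4 of which lay below every ac-WT heart (log2 fold change -0.47, SE 0.15, adjusted p = 0.211 by edgeR). Rgs4 had a median of 11.3 CPM in ac-WT and 18.9 CPM in ac-CYB5R3–KO hearts, 3 of which lay above every ac-WT heart (log2 fold change 0.51, SE 0.18, adjusted p = 0.234 by edgeR). Without ac-WT mice 2 and 3 these values were -0.28 and 0.36, and the Rgs4 call was lost, while with total counts Rgs2 was at -0.15 and lost its call.

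**Figure D5:**
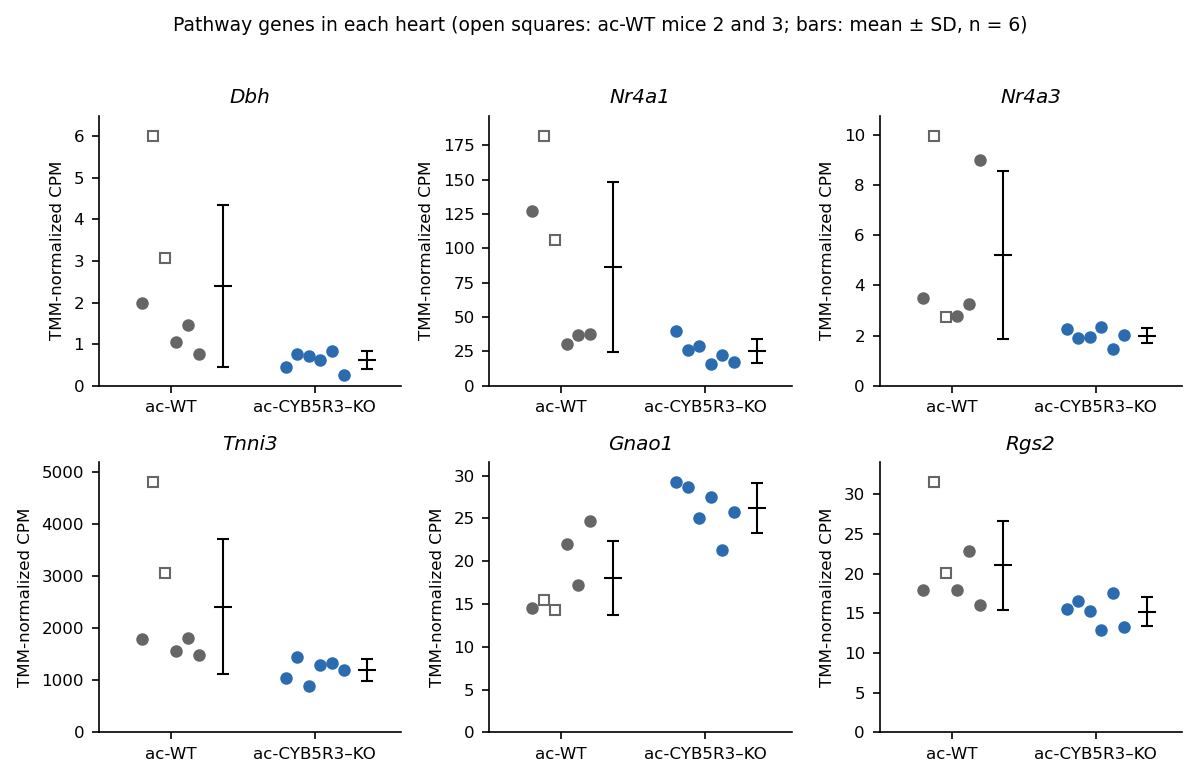
TMM-normalized CPM of 6 genes of the wider pathway in each heart. Each point is 1 mouse, bars are mean ± SD of 6 mice, and open squares are ac-WT mice 2 and 3. The groups of Nr4a3 and Tnni3 do not overlap, while in Dbh, Nr4a1 and Gnao1 5 of 6 ac-CYB5R3–KO hearts lie outside the ac-WT range, as do 4 of 6 in Rgs2.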

How the data were processed

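Whole-heart RNA of 12 mice, 6 per genotype, was made into libraries with a stranded total RNA kit and read without pairing. The deposited values are counts, a whole number of reads per Ensembl gene and heart, not normalized and not pooled. The study's methods name fastq-mcf, Trimmomatic and STAR with the mm9 genome, while the submitters' processing notes name STAR, featureCounts and GRCm39 without versions. The strand setting and annotation of the counts are not given in the sources used here, so reads of overlapping genes could have been divided between them. Coordinates and exon lengths were taken from GENCODE on NCBIM37. Symbols matched 31027 of 53700 identifiers (57.8%), and the 9 adrenergic genes and 102 pathway genes all matched.

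Genes passing filterByExpr (minimum count 10) were scaled with TMM factors. They were compared in edgeR (version 4.0.16, R 4.3.3) by its quasi-likelihood F test, two-sided, without covariates, with Benjamini-Hochberg adjustment over 17847 genes. The study's Cuffdiff on FPKM could not be run on counts. Single levels, as log2(CPM + 1), and log2 ratios of count + 1 were compared by exact permutation of the 12 hearts, whose smallest p is 0.00216. Alternatives were DESeq2 (version 1.42.0), total counts, other filters and pseudocounts, the replicate block, 1 surrogate variable (sva version 3.50.0), a cardiomyocyte marker covariate, dropping ac-WT mice 2 and 3 and leaving out each mouse. The edgeR test was checked on simulated counts.

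Although the rule for the 9 genes uses no measured value, the genes and lists were chosen with earlier results of these data known. Named pathway genes were those with an unadjusted p under 0.05, at most 3 a list by smallest p. Counting error is small beside the spread between mice for all but the lowest genes, and the reads carried no molecular identifiers, so they need not be independent molecules.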

Additional observations from a re-analysis of the deposited data

Results flagged for a closer look

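In groups of 6 hearts, 4 of 66 groups examined held a heart whose gap to the nearest other exceeded Dixon's 95% limit for 6 values, where chance gives about 1 in 20. The Adra1b level of ac-CYB5R3–KO mouse 2 was 5.4 CPM, and the other 5 hearts of its group were at 2.45 to 3.36 CPM. The same heart was at 48.4 CPM of Adcy5, with the other 5 at 24.7 to 33.5 CPM. Adra1d was at 0.187 CPM in ac-WT mouse 4, and at 0.384 to 0.491 CPM in the other 5 ac-WT hearts. Ppp1r1a was at 0.738 CPM in ac-CYB5R3–KO mouse 1, and at 0.333 to 0.468 CPM in the other 5 of its group. The cause of these values was not tested.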

How the results depend on the processing

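Main counts were 2614 genes at an unadjusted p under 0.05 and 18 at an adjusted p under 0.05, with 3 of 8 adrenergic and 21 of 97 pathway genes at the unadjusted limit. With 1 surrogate variable these were 1401, 3, 1 and 11. With the cardiomyocyte marker covariate they were 998, 2, 1 and 12. In both of these fits the single adrenergic gene was Adrb1, higher by 0.37 and 0.36. Without ac-WT mice 2 and 3 they were 1461, 7, 0 and 12. Adjusted calls numbered 437 with DESeq2 (5 of the pathway), 35 with no filter, 8 with total counts and 2 with the replicate block, which left 2 adrenergic and 28 pathway genes at the unadjusted limit, without Adcy6 (-0.76) and Prkce (-0.33). Leaving out each mouse gave 1888 to 3368 genes, 2 to 38 adjusted calls, 1 to 4 adrenergic and 13 to 28 pathway genes. Calls of adrenergic genes at an adjusted p under 0.05 numbered 0 in all 20 alternatives. Equal numbers in the 2 genotypes belong to different animals. Their deviations correlated by 0.133 on average (-0.16 to 0.36), against -0.0255 over other pairs, and 6 of 12 hearts correlated best with their own number, a hint of shared variation from the data. The labels give no shared litter, batch or day, and not every pair was correlated, so the block stayed an alternative.

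Total counts moved the median of all genes to 0.26 on the log2 scale and turned Gnas to 0.19, Adcy5 to 0.099 and Grk2 to 0.13. As log2(CPM + 1) these were 0.19, 0.065 and 0.14, with Adrb1 at 0.36. Adcy5 also turned to 0.04 with the surrogate variable, 0.16 with the covariate and 0.039 without ac-WT mice 2 and 3. With the surrogate variable Adcy6 turned to 0.13 and Pde4a to 0.0058. Without ac-WT mice 2 and 3, the permutation tests of Grk2 (-0.11) and Grk5 (0.22) no longer passed. Leaving out each mouse, edgeR values ran from -0.029 to 0.2 for Adrb1, -0.077 to 0.5 for Adra1a and -0.14 to 0.049 for Gnas, through 0 in each. Levels ran from -0.029 to 0.18 for Adrb1, -0.073 to 0.2 for Adra1a, -0.83 to -0.43 for Adra1b, -0.11 to 0.045 for Gnas and -0.18 to -0.11 for Grk2, and ratios from 0.59 to 1.06 for Adra1a to Adra1b and -0.3 to 0.22 for Adra1a to Adrb1. The cause was not tested. Depth limits Adrb3 and Adra1a, whose reads were fewest.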
